A study of Homo sapiens with 6 samples.

Results

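The S100 genes encode small proteins that bind calcium through a pair of EF-hand loops. Measured here were 10 of them, S100A2, S100A3, S100A4, S100A6, S100A10, S100A11, S100A13, S100A14, S100A16 and S100P, in a human colorectal cancer line with and without RNF186, a RING-type ubiquitin ligase. The rows were taken by Entrez identifier, and all 10 were found among 17563 genes with values. The list was selected from the family with the levels in these libraries already known, in both groups, so the changes of the 10 genes are given as a description and without p-values. It is not a cut on level, since S100A1 and S100A9, which are not on it, had higher means than S100A3.

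Most S100 proteins work as dimers. Calcium opens a hydrophobic patch on each subunit, and through it the dimer binds target proteins such as annexins, myosin or ezrin. Some are also released from cells and bind surface receptors, RAGE (encoded by AGER) and TLR4 among them. Most of the genes lie together on chromosome 1, in a stretch that also holds genes of the cornified skin envelope, and many of them are well expressed in gut epithelium and in its tumours.

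The cells were Ls174t, an established colorectal adenocarcinoma line. The comparison was between 3 libraries from cells with the genotype label Vector and 3 from a stable line labelled RNF186-overexpression. None of the cultures received a treatment. Each line was split into 3 dishes of 6 cm and grown for 48 h in DMEM with 10% serum and 1% penicillin-streptomycin. All 3 libraries of a group thus come from 1 line, and a p-value measures the spread between dishes, not between separately made lines.

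Values are FPKM, the deposited fragment numbers scaled to gene length and to the mapped fragments of each library. The depth of the libraries is unknown, since the table holds no counts. Summed FPKM ran from 387477.6 to 412391.1 per library. RNF186 was at 0.61 to 0.71 FPKM in the vector libraries and at 451.72 to 577.47 in the RNF186 libraries. The epithelial markers fit the labelled line, with EPCAM at 505.19 to 623.62, KRT8 at 2603.81 to 3841.88 and all 9 listed markers above a mean of 1 FPKM. Their levels were not alike in the groups. At a limma adjusted p under 0.05, 4 of the 9 were higher and 3 lower in RNF186 libraries. That is 77.8% called, beside 38.8% of all tested genes. CEACAM5 rose by 1.31 and VIL1 fell by 0.51 on the log2 scale. Markers of fibroblasts summed to at most 0.07 FPKM, those of endothelium to at most 0.38 and those of retina, which the extraction protocol names, to at most 1.64. Leukocyte markers summed to 3.81 to 4.37 FPKM in vector and 3.26 to 3.92 in RNF186 libraries, nearly all of it PTPRC and CD14, and CD3E and FCGR3A were at or near 0. CD14 fell from 1.99 ± 0.186 to 1.31 ± 0.188 FPKM (SD, n = 3 each, limma, adjusted p = 0.0103). The part of these markers in the results was not tested.

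Of the 10 members 6 were lower in the RNF186 libraries, and 0 were higher. In mean FPKM, S100A2 fell by 54.0%, S100A10 fell by 50.1%, S100A16 fell by 42.1%, S100A14 fell by 37.5%, S100A6 fell by 31.2% and S100A4 fell by 13.8%. For these 6 genes every RNF186 library lay below every vector library, as it did for 23.8% of all tested genes. The same 6 passed the limma threshold of an adjusted p under 0.05 over the 11632 genes whose mean reached 1 FPKM. Among all tested genes 38.8% passed that threshold in either direction and 18.9% passed as lower. The median change of the 10 members on the log2(FPKM + 1) scale was -0.43, beside a median of 0.00 over all tested genes. S100A3, S100A11, S100A13 and S100P did not pass, and their groups overlapped. As these values were known when the genes were picked, nothing is read from the count. With an adjustment for GC content and transcript length, chosen after seeing the data, the log2 change of every member moved upward. It went from -0.54 to -0.32 for S100A6, from -0.98 to -0.89 for S100A10 and from 0.02 to 0.19 for S100A11. The part of length and GC content in the changes was not tested further.

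**Figure D1:**
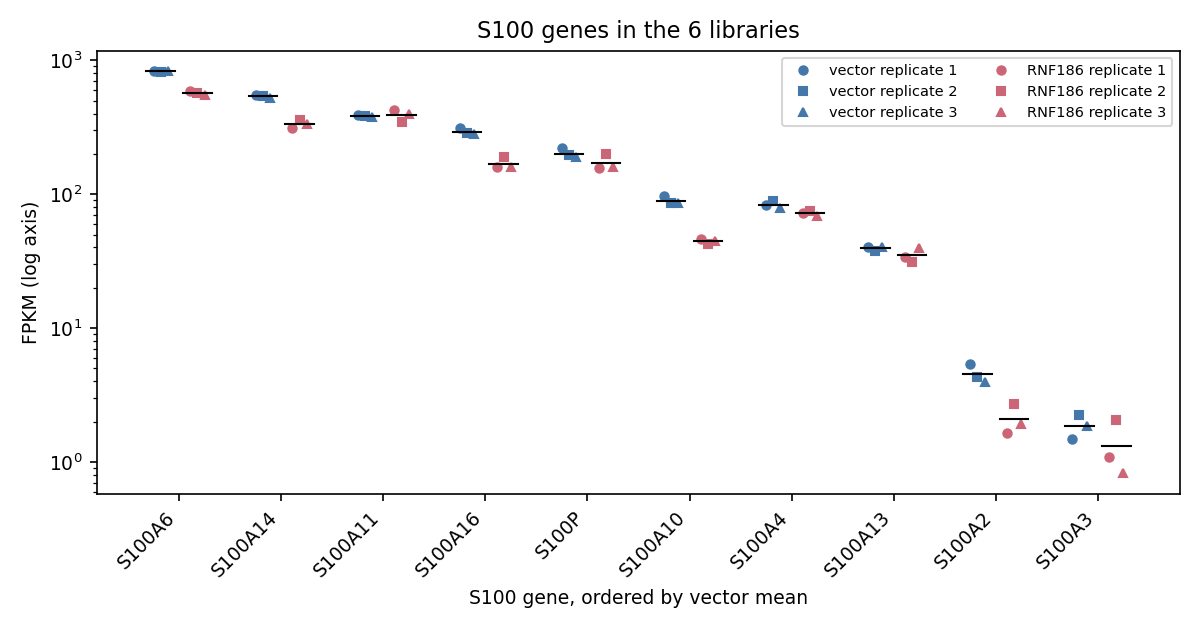
FPKM of the 10 S100 genes on a log axis, by library (markers give the replicate) and group (blue for vector, red for RNF186), with a black line at each group mean of 3 libraries. The groups are apart for S100A6, S100A14, S100A16, S100A10, S100A4 and S100A2 and overlap for S100A11, S100P, S100A13 and S100A3.

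S100A10 (Entrez 6281), also called p11, lacks calcium control and is held in a complex with annexin A2, which it links to the membrane skeleton. It was at 96.3, 86.18 and 85.49 FPKM in the vector libraries and at 46.5, 42.53 and 44.79 in the RNF186 libraries. The lowest vector library stood well above the highest RNF186 library. Its log2 change was -0.98 (SE 0.06), and 0.31% of tested genes had a lower value. On the log2(FPKM + 1) scale this was the largest change of the 10, but S100A2 changed more with a pseudocount of 0.1 (-1.103 against -0.999), with TPM scaling (-0.96 against -0.95) and without RNF186 replicate 2 (-0.99 against -0.95).

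S100A16 (Entrez 140576) and S100A14 (Entrez 57402) are neighbours on the chromosome, and their proteins have been reported to bind each other. S100A16 was at 309.59, 286.95 and 280.33 FPKM in vector and 158.66, 189.85 and 159.42 in RNF186 libraries, a log2 change of -0.79 (SE 0.07). S100A14 was at 550.26, 542.31 and 519.73 FPKM against 310.33, 360.38 and 336.65, a log2 change of -0.68 (SE 0.06). In both genes RNF186 replicate 2 was the highest of its group and still lay far below the vector libraries.

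S100A6 (Entrez 6277), or calcyclin, binds several annexins and the ubiquitin adaptor CACYBP, and it was the most abundant member. It was at 832.87, 817.56 and 834 FPKM in vector and 588.12, 567.3 and 555.06 in RNF186 libraries. The groups were far apart, with little spread within either. Its log2 change was -0.54 (SE 0.04). With the values of a library adjusted for GC content and transcript length, an alternative chosen after seeing the data, the change was -0.32, with the gene still past the threshold.

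S100A2 (Entrez 6273), a mostly nuclear member, was low throughout. It was at 5.36, 4.3 and 3.96 FPKM in vector and 1.64, 2.7 and 1.92 in RNF186 libraries. The groups did not overlap, and the log2 change was -0.85 (SE 0.13). S100A4 (Entrez 6275), a binding partner of non-muscle myosin that is known for its role in metastasis, had the smallest of the 6 differences. Its values of 83.26, 88.65 and 78.24 FPKM in vector and 72.32, 74.39 and 68.87 in RNF186 libraries left only a narrow gap between the groups, with a log2 change of -0.21 (SE 0.06). S100A4 did not pass without vector replicate 2 or without RNF186 replicate 3, with quantile normalization, or with the GC and length adjustment, where its change was -0.06.

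S100A11 (Entrez 6282), a partner of annexin A1, did not pass. It was at 391.89, 384.71 and 375.83 FPKM in vector and 426.53, 346.5 and 399.41 in RNF186 libraries, so that the RNF186 values lay on both sides of the vector values. Its log2 change of 0.02 had a 95% interval from -0.13 to 0.17. With the GC and length adjustment it was 0.19. S100P (Entrez 6286), which binds ezrin and is often high in gastrointestinal tumours, was at 219.91, 196.14 and 188 FPKM against 157.75, 197.97 and 158.35. Only RNF186 replicate 2 reached into the vector range. The log2 change of S100P was -0.24 (SE 0.09), and without RNF186 replicate 2 it was -0.34 and passed the threshold. It also passed with median scaling and with the replicate number as a block.

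S100A13 (Entrez 6284), which takes part in the release of FGF1, was at 40.05, 37.85 and 40.27 FPKM in vector and 34.02, 31.16 and 39.6 in RNF186 libraries. RNF186 replicate 3 lay within the vector range, and without it the log2 change went from -0.18 to -0.27 and passed the threshold. Without RNF186 replicate 2 the change of S100A13 was -0.099, and with the GC and length adjustment it was -0.013. S100A3 (Entrez 6274), a zinc-binding member best known from the hair cuticle, was the least abundant member. It was at 1.48, 2.24 and 1.87 FPKM against 1.09, 2.07 and 0.82, with a log2 change of -0.33 (SE 0.18). Without RNF186 replicate 2 the change of S100A3 was -0.55 and passed, without RNF186 replicate 3 it was -0.17, and with the GC and length adjustment it was -0.16.

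The 10 genes together held 2407.72 to 2530.97 FPKM in the vector libraries and 1764.89 to 1814.85 in the RNF186 libraries, a ratio of means of 0.728. As a share of all summed FPKM this was 0.609% ± 0.0049 in vector and 0.459% ± 0.0047 in RNF186 libraries (SD, n = 3 each). S100A6, S100A14, S100A11 and S100A16 made up 83.0% ± 0.563 of the S100 sum in vector and 81.8% ± 1.00 in RNF186 libraries. Within the sum the share of S100A11 was 15.6% ± 0.119 in vector and 21.8% ± 2.43 in RNF186 libraries, and that of S100A10 was 3.63% ± 0.156 and 2.49% ± 0.130. In bulk RNA, fewer cells that express a gene and less RNA per cell cannot be told apart.

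**Figure D2:**
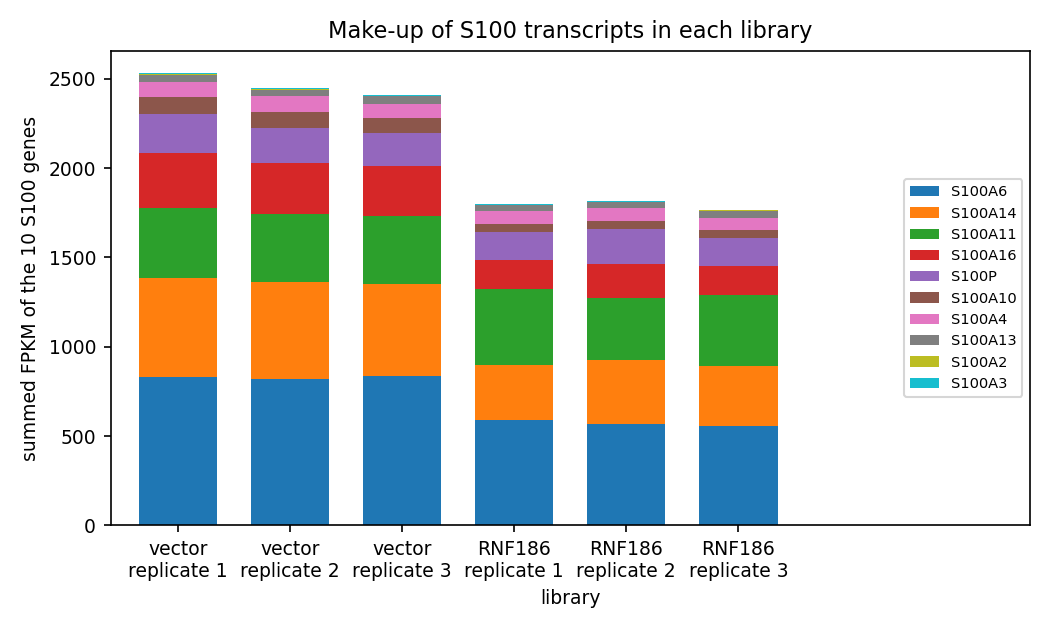
Summed FPKM of the 10 S100 genes in each of the 6 libraries, stacked by gene in the order of the vector means. The vector bars reach 2407.72 to 2530.97 and the RNF186 bars 1764.89 to 1814.85, while the S100A11 segment is of like height in both groups.

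FPKM are per length, so the genes were ranked within a group. The annotation that gave those lengths is unknown, and the order rests on it. In vector libraries the order by mean FPKM was S100A6, S100A14, S100A11, S100A16, S100P, S100A10, S100A4, S100A13, S100A2 and S100A3, and only S100A10 and S100A4 overlapped as neighbours in that order. In RNF186 libraries it was S100A6, S100A11, S100A14, S100P, S100A16, S100A4, S100A10, S100A13, S100A2 and S100A3. There, S100A11 and S100A14 overlapped, as did S100P and S100A16 and S100A2 and S100A3. Over all 6 libraries S100A6 was the 67th most abundant of all genes with values, S100A14 the 119th and S100A11 the 132nd.

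The stretches before the start sites of 4 abundant members that were lower, and of S100A11, which was not, are shown so that they can be set side by side. They are the 150 bases before the start in RefSeq, GRCh38.p14, 5′ to 3′ on the gene's strand. Their coordinates belong to that assembly, not to the deposited table. All 10 members matched a promoter entry, with 14 start sites in all. Capitals mark a TATA box (TATAA), a GC box (GGGCGG) or an AP-1 motif (TGANTCA), searched on both strands, and the stretches of S100A10 and S100A16 hold none of them.
S100A10 (chr1:151993860-151994009, minus strand): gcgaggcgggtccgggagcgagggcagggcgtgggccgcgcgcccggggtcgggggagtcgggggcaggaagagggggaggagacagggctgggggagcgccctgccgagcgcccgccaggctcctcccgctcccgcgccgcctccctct
S100A16 (chr1:153613138-153613287, minus strand): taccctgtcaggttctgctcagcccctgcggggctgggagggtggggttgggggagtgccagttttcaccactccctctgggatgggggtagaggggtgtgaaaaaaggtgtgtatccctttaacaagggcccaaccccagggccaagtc
S100A14 (chr1:153616326-153616475, minus strand): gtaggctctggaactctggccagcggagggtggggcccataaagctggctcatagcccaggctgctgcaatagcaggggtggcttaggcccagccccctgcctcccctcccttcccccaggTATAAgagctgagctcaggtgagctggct
S100A6 (chr1:153535992-153536141, minus strand): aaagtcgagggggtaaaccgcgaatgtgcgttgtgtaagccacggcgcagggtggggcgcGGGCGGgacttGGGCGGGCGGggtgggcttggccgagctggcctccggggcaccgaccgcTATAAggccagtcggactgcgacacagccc
S100A11 (chr1:152037005-152037154, minus strand): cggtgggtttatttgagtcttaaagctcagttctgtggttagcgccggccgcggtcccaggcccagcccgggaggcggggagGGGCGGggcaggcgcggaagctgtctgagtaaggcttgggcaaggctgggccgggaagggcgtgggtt
The TATAA letters were in 5 of the 14 member stretches and in 12.1% of all 35116 RefSeq stretches of that length. In S100A14 they began 29 bases and in S100A6 30 bases before the start, and they were also in stretches of S100A4, S100A13 and S100P. GGGCGG was in 5 of 14, against 36.8% of all. S100A2 alone held the AP-1 letters, found in 4.2% of all stretches, and the NF-κB motif was in 0 of the 14 and in 0.4% of all. The stretch of S100A10 was 81.3% G and C, against a median of 60.0% over all stretches. S100A16 has another start site, whose stretch holds a GC box and is not shown. The stretches of S100A4 and S100P are not shown either, though both had a higher mean over all 6 libraries than S100A10. S100A4 was also lower, and S100P did not pass. A match of letters is no evidence of binding. Members that were lower and members that were not occur both with and without a TATA box.

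In RefSeq 9 of the 10 genes lie in 1 stretch of chromosome 1, from S100A10 to S100A13, and S100P lies on chromosome 4. That stretch held 34 genes with values, of which 12 reached a mean of 1 FPKM. These were the 9 members, S100A1, S100A9 and PRR9. The LCE and SPRR genes of the skin envelope within it had means below 1 FPKM. So had all 6 measured genes for proteins with an S100 domain fused to a longer chain, such as FLG (filaggrin) at 0.13 to 0.20 FPKM. PRR9, a proline-rich gene between S100A11 and S100A9 that was named after its values were seen, differed in the other direction. It was at 0.31 to 0.73 FPKM in the vector libraries and at 3.35 to 4.28 in the RNF186 libraries, a log2 change of 1.72 (SE 0.12). Its mean reached 1 FPKM only through the RNF186 libraries, so the change is given as a description. Of the 10 tested genes before the stretch 2 rose and 1 fell, and of the 10 after it 1 rose and 2 fell, 30% called on each side beside 38.8% of all genes.

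**Figure D3:**
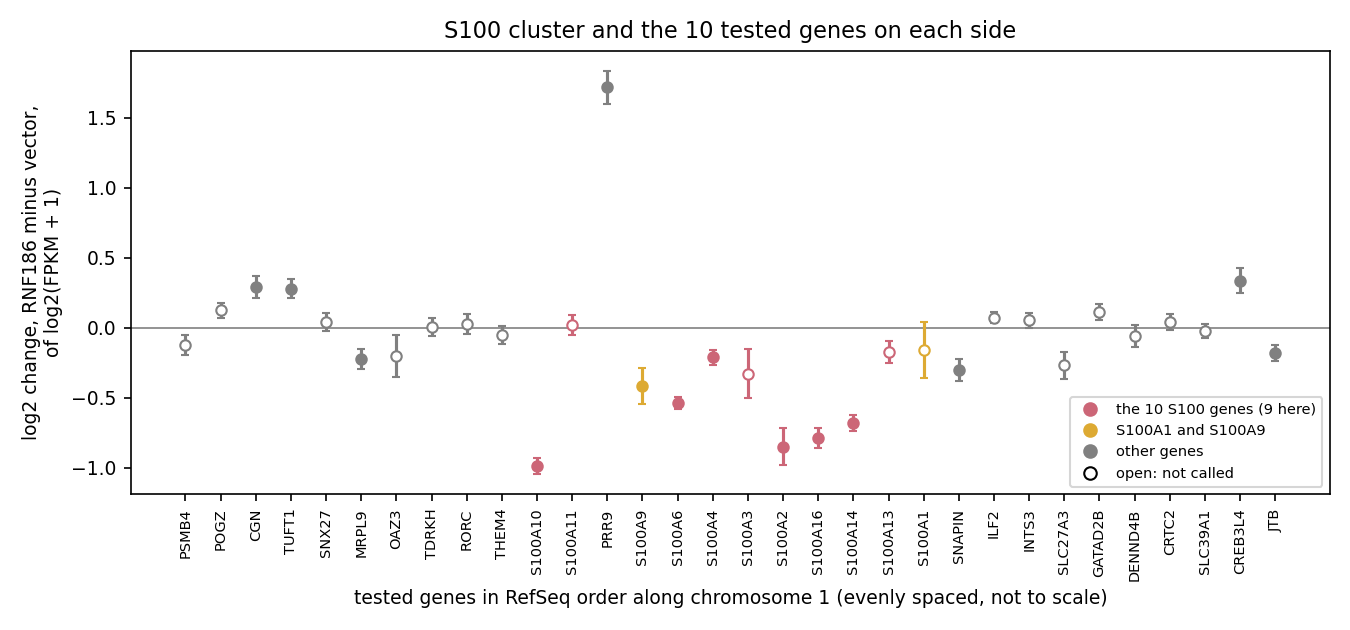
Log2 change (RNF186 minus vector, of log2(FPKM + 1)) with its standard error for the tested genes in RefSeq order along chromosome 1, 3 libraries per group, with the 10 S100 genes in red (9 are on this chromosome), S100A1 and S100A9 in yellow and other genes in grey. Filled points passed the threshold; 6 of the 9 red points are filled and lie between -0.21 and -0.98, and PRR9 stands alone at 1.72.

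Of the 11 other S100 genes of the family 6 had values and 5 had a row without values, S100A8, S100A12 and S100B among them. S100A9, an inflammatory alarmin of myeloid cells that pairs with S100A8, was at 2.89, 3.77 and 3.19 FPKM in vector and 1.62, 2.64 and 2.45 in RNF186 libraries. It fell by 0.41 on the log2 scale (SE 0.13) and passed the threshold. S100A1, best known from heart muscle, was at 1.6, 3.41 and 3.73 FPKM against 2.68, 2.65 and 1.91 and did not pass (log2 change -0.16, 95% interval -0.60 to 0.29). S100A9 and S100A1 were left off the list of members with the levels known, so their changes are also given as a description and without p-values. S100A5, the highest of those below 1 FPKM, was at 0.37 to 0.84 in vector and 0.28 to 0.38 in RNF186 libraries. S100A7, S100G and S100Z did not exceed 0.3 FPKM in any library.

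Some of these genes overlap in the annotation. S100A1 lies within S100A13 on the opposite strand, and the ends of S100A4 and S100A5 share 65 bases. CHTOP, also on the opposite strand, overlaps S100A13 by 296 bases. S100A6 overlaps a long non-coding RNA gene on the opposite strand by 1393 bases, and S100A3 overlaps another by 1930 bases. These RNA genes have no values here. No source used here says whether the authors' counting used strand. Reads of S100A13 and S100A1, or of S100A6 or S100A3 and these RNA genes, may thus not be told apart. Of the 50-base words in coding transcripts of S100A13 in GENCODE 29, 42.4% also occur in 1 other gene. For S100A11 2.2% also occur in 1 other gene. The other 8 members shared no 50-base word with a GENCODE 29 transcript of another gene. Transcripts were compared in their own direction only, so words shared with the opposite strand were not searched.

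Known binding partners and receptors of S100 proteins formed a separate list of 25 genes, taken from textbook knowledge. It was drawn up with earlier results of these data known. Its counts and adjusted p-values are thus a description beside the members, not independent support for them. Of the 25 genes 19 reached a mean of 1 FPKM, 9 fell, 2 rose and 8 did not pass, and the median log2 change was -0.12. The share called was 57.9%, beside 38.8% of all tested genes, of which 18.9% fell and 19.9% rose. Of all calls 51.3% were thus higher, and 63.1% with TPM scaling. The annexins and their scaffold were the part of the list where all 4 tested genes fell. The fifth gene of that part, ANXA6, was below the 1 FPKM limit and was not tested, at 0.35, 0.18 and 0.18 FPKM in vector and 0.45, 0.49 and 0.65 in RNF186 libraries, higher with no overlap.

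ANXA1, encoding the partner of S100A11, fell from 125.41, 125.09 and 116.59 FPKM in vector to 51.8, 49 and 50.44 in RNF186 libraries (log2 change -1.26, SE 0.05, limma, adjusted p = 4.43e-08). ANXA2, the partner of S100A10, fell less, from 760 ± 37.4 to 636 ± 5.42 FPKM (SD, n = 3 each, log2 change -0.25, limma, adjusted p = 0.00249). Beside these, S100A11 itself had a change of 0.02 and S100A10 of -0.98. ANXA11, a partner of S100A6, fell from 74.2 ± 4.25 to 59.8 ± 4.56 FPKM (log2 change -0.31, limma, adjusted p = 0.0042). AHNAK, a giant scaffold protein that binds the complex of S100A10 and annexin A2, fell from 82.5 ± 2.98 to 53.6 ± 1.16 FPKM (log2 change -0.61, limma, adjusted p = 6.41e-06).

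Among cytoskeletal partners EZR, encoding ezrin, the target of S100P, fell by 0.33 (limma, adjusted p = 0.000167) and MYH9, the myosin heavy chain bound by S100A4, by 0.23 (0.00389), both on the log2 scale. The scaffold gene IQGAP1, also a partner of S100P, was at 71.6 ± 2.36 and 66.0 ± 3.14 FPKM and did not pass (limma, adjusted p = 0.092), though it did with the GC and length adjustment (-0.21, 0.000306). Of the partners of S100A6 among chaperones and ubiquitin adaptors, CACYBP fell by 0.27 (limma, adjusted p = 0.000651) and STIP1 by 0.29 (0.000404) on the log2 scale. MDM2, a ubiquitin ligase to which several S100 proteins bind, fell by 0.52 on the same scale (limma, adjusted p = 6.24e-05).

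Only 2 partners rose. SYT1, a synaptotagmin found with S100A13 in the complex that releases FGF1, rose from 4.25, 3.96 and 4.75 FPKM to 18.99, 17.94 and 20.01 (log2 change 1.91, SE 0.07, limma, adjusted p = 4.43e-08). FGF1 itself was at most 0.21 FPKM in any library. S100PBP, which encodes a binding protein of S100P, rose from 8.35 ± 0.501 to 9.74 ± 0.0569 FPKM (log2 change 0.20, limma, adjusted p = 0.0264). That call ended without any 1 of vector replicates 1 and 3 and RNF186 replicates 1 and 3, with the replicate block and with the GC and length adjustment (limma, adjusted p = 0.0501 to 0.117). The receptor gene AGER was at 1.99 ± 0.318 and 2.01 ± 0.0551 FPKM (log2 change 0.01, 95% interval -0.19 to 0.22), and TLR4 was at most 0.13 FPKM in any library.

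**Figure D4:**
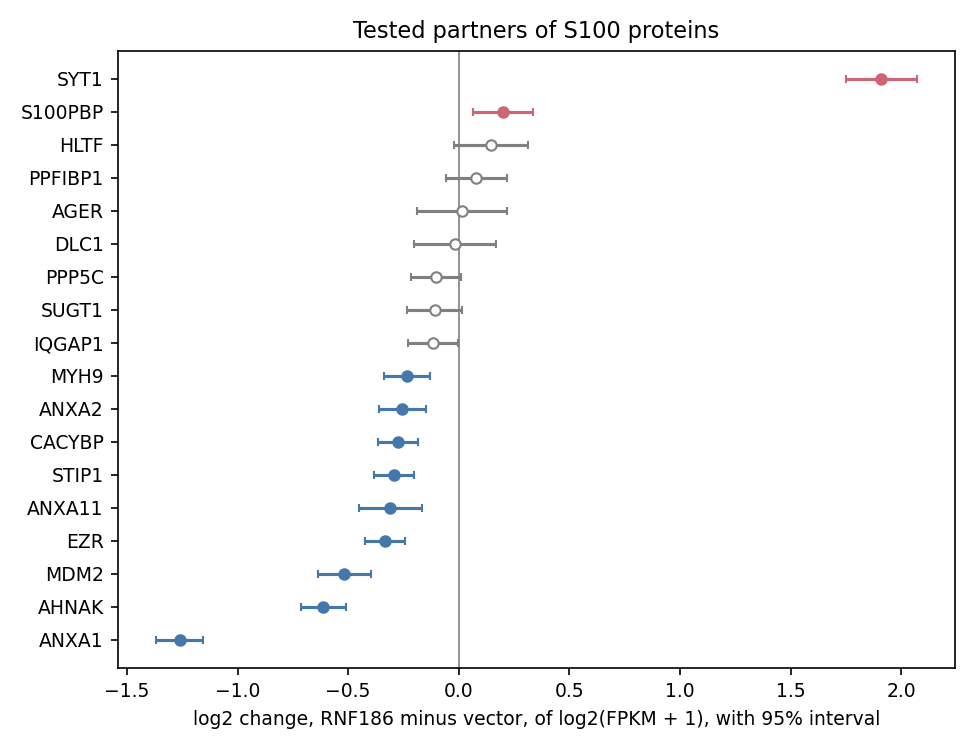
Log2 change (RNF186 minus vector, of log2(FPKM + 1)) with its 95% interval for tested partners that are reported here, 3 libraries per group, in blue where lower, red where higher and open grey where the threshold was not passed. ANXA1 at -1.26 and SYT1 at 1.91 lie farthest from 0, and the tested genes ANXA1, ANXA2, ANXA11 and AHNAK are all lower.

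The genes outside the family with the profile most like that of S100A10 were TPPP3, CPED1 and IGFL2. Likeness was the root mean square difference of centred log2(FPKM + 1) over the 6 libraries, among 11620 genes, and it was 0.07, 0.08 and 0.08 on the log2 scale. IGFL2, a secreted protein of the insulin growth factor-like family, was at 127.83 to 131.14 FPKM in vector and 57.52 to 60.31 in RNF186 libraries. TPPP3 went from 1.92 to 2.60 FPKM in vector to 0.62 to 0.67, and CPED1 from 5.08 to 6.34 to 2.03 to 2.74. The mean of TPPP3 reached 1 FPKM only through the vector libraries, so its place is given as a description. At such low FPKM the added 1 shrinks a change, so likeness on this scale is not likeness in the ratio of FPKM.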

How the data were processed

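RNA was sequenced from 6 dishes of Ls174t cells, and per the labels' protocols the libraries came from a TruSeq kit. The authors deposited FPKM values. The submitters' processing notes name Bowtie 0.12.2 and the mouse builds mm8 and mm9, which do not match the human identifiers, so the build behind the FPKM is unknown. For the counting program and annotation, the sources used here give no name.

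Of 19485 rows 1 named no gene and 1921 had no value. Symbols came from RefSeq (GRCh38.p14) by Entrez identifier, for 17524 of 17563 rows. The 11632 genes whose mean reached 1 FPKM were analysed as log2(FPKM + 1) with limma 3.58.1 in R 4.3.3 (trended empirical Bayes, two-sided, no covariates, Benjamini-Hochberg adjustment over all tested genes), and called at an adjusted p under 0.05. With 3 libraries against 3, the smallest two-sided exact permutation p is 0.1. No count model was used, since the files hold no counts, and depth is unknown. The fit was tested on simulated data.

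The members and gene lists were chosen with earlier results of these data known. Named are all members, other S100 genes whose mean reached 1 FPKM, the highest below it, every partner that was called, 2 that were not (IQGAP1 and AGER, picked with their values seen), RNF186 and the 3 genes most like S100A10, the member with the largest change on the log2(FPKM + 1) scale. TLR4, FGF1, ANXA6, FLG, PRR9, DLC1 and PPFIBP1 were added after their values were seen. Results for some genes of the lists are not reported here. Alternatives were pseudocount, filter, scaling, variance model, a replicate block, leaving out each library and, chosen after seeing the data, an adjustment for GC content and transcript length (GENCODE 29, splines with 5 degrees of freedom, 99.72% of tested genes with a value).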

Additional observations from a re-analysis of the deposited data

How the results depend on the processing

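The members were picked with these values known, so their calls under other settings are given as a description and support nothing. S100A6, S100A10, S100A14 and S100A16 were lower in all 15 alternatives, and S100A2 in the 14 where it was tested (its mean is under 5 FPKM). The summed S100 level in RNF186 over vector libraries was 0.728, and 0.754 with TPM scaling. The count of partners that rose was 2, but 1 with the replicate block, 1 with the GC and length adjustment, 4 with no filter on low values, and 1 to 3 when 1 library was left out. The members called lower numbered 5 to 8 when 1 library was left out. Leaving out 1 library gave 1435 (without RNF186 replicate 3) to 2945 (without RNF186 replicate 2) lower genes in all, beside 2195. Signs turned only for changes near 0. S100A11 ranged from -0.046 to 0.104 when 1 library was left out, and was negative without RNF186 replicate 1. DLC1, at -0.016, was at 0.0196 with TPM scaling and ranged from -0.071 to 0.023 when 1 library was left out. AGER was at -0.0935 with quantile normalization and ranged from -0.028 to 0.101 when 1 library was left out. PPFIBP1, at 0.08, was at -0.0144 with the GC and length adjustment. The causes were not tested. Libraries with the same replicate number did not deviate together throughout (correlations -0.27, -0.07 and 0.26). These values show no pairing by number, but 3 libraries per group are too few to tell that there is none. With the replicate block 4037 genes were called in place of 4509, S100P was called (change -0.24) and S100PBP was not (0.20). FPKM without depth gives no counting error for S100A2 and S100A3.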
